A study of Mus musculus with 22 samples.

Results

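The genes described are the 10 members of the Nogo receptor and Lingo family, taken by name from a table of 37786 genes counted in the anterior cingulate cortex (ACC) of mice. They are the ligands Rtn4 (Nogo) and Omg, the receptors Rtn4r, Rtn4rl1 and Rtn4rl2, the coreceptors Ngfr and Tnfrsf19, and Lingo1, Lingo2 and Lingo3. The study asked which transcripts of the ACC change when the pathway from the basolateral amygdala (BLA) to the ACC is activated repeatedly. All 22 mice were wildtype C57BL/6J males, 8 weeks old at the start, and both groups received AAV5-CaMKIIa-ChR2(H134R)-EYFP in the BLA of both sides and an optic fibre on 1 side of the ACC. The 10 stimulated mice received blue light for 20 min on 3 consecutive days of each of 3 weeks (9 sessions), and the 12 control mice went through the same handling without light. The ACC of both sides was dissected 48 h after the last session. The CaMKIIa promoter limits the channel mainly to excitatory neurons, and the fibre stood on 1 side while the tissue was taken from both.

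Rtn4 encodes a reticulon of the endoplasmic reticulum that is also exposed on the membranes of oligodendrocytes and neurons. Rtn4, oligodendrocyte myelin glycoprotein (Omg) and myelin-associated glycoprotein (Mag) all bind the Nogo receptor encoded by Rtn4r, a lipid-anchored protein of neurons that has no intracellular part of its own. It signals through partners, among them the p75 receptor (Ngfr), TROY (Tnfrsf19) and Lingo1, and it is known for limiting axon growth and structural plasticity in the adult brain. Lingo1 is also known as a brake on oligodendrocyte differentiation and myelination.

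The bulk tissue carried markers of neurons. Snap25 (a synaptic protein of neurons) lay between 3093 and 6067 CPM (counts scaled to library size). Slc17a7 (a vesicular glutamate transporter of excitatory neurons) lay between 1137 and 2963 CPM, and the striatal receptor gene Drd2 between 0.729 and 4.11 CPM. The 8 genes of a striatal list, Drd2 among them, summed to 191 to 304 CPM in controls and 210 to 330 CPM in stimulated mice. How much neighbouring tissue the samples held was not tested. Total counts were 24563116 to 36542883 in controls and 23090483 to 43668462 in stimulated mice. The labels number the libraries from 1 to 23, without 7, in 2 runs that each hold controls followed by stimulated mice, with 6 controls and 4 stimulated mice in numbers 1 to 11 and 6 of each in numbers 12 to 23. The labels do not say whether the runs are the animal cohorts or batches of the study. Controls 9 and 11, both in numbers 12 to 23, stood apart, with oligodendrocyte scores of 1.99 and 1.45 on the log2 scale (the mean over 25 marker genes, centred over mice), against a range of -0.71 to 0.16 in the other 20 mice.

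Rtn4r and Rtn4rl2 were the only members with an unadjusted edgeR p below 0.05 in the comparison of the groups, beside 11.5% of all genes. The stretches before their start sites are shown for that reason alone. Neither gene passed adjustment, and neither kept an unadjusted edgeR p below 0.05 without controls 9 and 11. RefSeq promoter entries (GRCm38.p6) were matched for 8 of the 10 members. Each sequence runs 5′ to 3′ on the strand of its gene, from base 250 to base 51 before the start that RefSeq gives, which for Rtn4rl2 differs from the end of the gene in GENCODE. Capitals mark the GC box, GGGCGG on either strand, which here reads CCGCCC throughout. The first is chr16:18127392-18127591 on the plus strand and the second chr2:84886743-84886942 on the minus strand.
Rtn4r: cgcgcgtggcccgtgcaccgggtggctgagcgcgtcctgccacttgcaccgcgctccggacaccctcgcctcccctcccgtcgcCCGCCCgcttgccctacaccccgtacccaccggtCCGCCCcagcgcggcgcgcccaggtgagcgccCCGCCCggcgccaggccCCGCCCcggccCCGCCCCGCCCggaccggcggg
Rtn4rl2: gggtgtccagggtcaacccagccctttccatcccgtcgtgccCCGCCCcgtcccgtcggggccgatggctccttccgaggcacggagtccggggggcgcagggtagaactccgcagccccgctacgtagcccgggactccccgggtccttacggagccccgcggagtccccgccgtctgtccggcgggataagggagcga
The Rtn4r stretch has 83.0% G or C, 33 CpG and 6 GC boxes, of which the last pair overlap by 1 base. The Rtn4rl2 stretch has 73.0% G or C, 24 CpG and 1 GC box. Over 32851 RefSeq promoters the median of the same stretch was 51.5% G or C, 24.6% held a GC box and 4.34% held 3 or more. Rtn4r was richer in G and C than 99.5% of these promoters and Rtn4rl2 than 94.5%. Neither stretch holds the cAMP response element TGACGTCA (0.828% of promoters), the Egr sequence GCGTGGGCG (0.353%) or the E-box CACGTG (4.34%).

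Expression differed widely between members. Per kilobase of exon, the mean level over 22 mice was highest for Omg (92.0 ± 12.1 CPM per kilobase, SD), followed by Lingo1 (72.4 ± 18.9), Rtn4 (58.5 ± 12.5), Rtn4r (58.3 ± 9.44), Rtn4rl2 (40.4 ± 8.27), Tnfrsf19 (31.6 ± 11.0), Rtn4rl1 (29.1 ± 5.66), Lingo3 (10.5 ± 3.24), Lingo2 (6.28 ± 1.82) and Ngfr (0.0688 ± 0.0423). A level above that of the next gene was found in all 22 mice for Rtn4r over Rtn4rl2, Rtn4rl1 over Lingo3, Lingo3 over Lingo2 and Lingo2 over Ngfr. The other neighbours changed places between mice, and the number of mice in each order differed between the runs. Lingo1 was above Rtn4 in 1 of 10 mice of numbers 1 to 11 and in 12 of 12 of numbers 12 to 23, and Omg was above Lingo1 in 10 of 10 and 5 of 12. Tnfrsf19 was above Rtn4rl1 in 3 of 10 and 9 of 12, with run means of 21.3 against 25.9 CPM per kilobase in the first run and 40.2 against 31.8 in the second. Rtn4 was above Rtn4r in 6 of 10 and 2 of 12, and Rtn4rl2 above Tnfrsf19 in 10 of 10 and 7 of 12. Dividing by the longest transcript in place of all exons put Lingo1 above Omg and Lingo2 above Lingo3 and left the other places as they were. Levels moved with it, to 94.2 for Lingo1, 88.6 for Rtn4 and 13.7 CPM per kilobase for Lingo2, while Rtn4r stayed at 58.3.

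**Figure D1:**
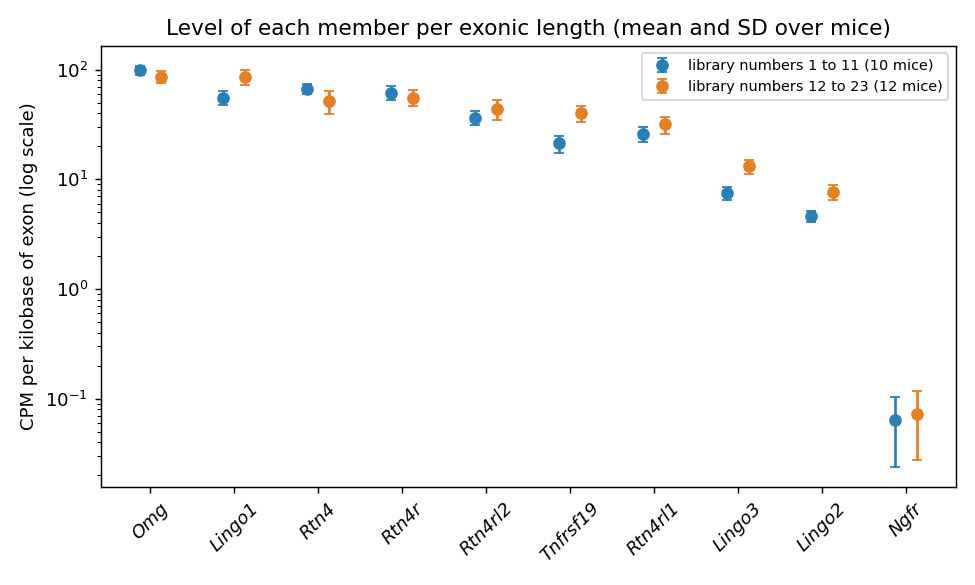
Mean level of each member in CPM per kilobase of exon, on a log axis, with SD over the 10 mice of library numbers 1 to 11 and the 12 mice of numbers 12 to 23. Omg is highest in numbers 1 to 11 (98.6) and Ngfr, with a mean of 0.0688 over all mice, stands far below the other 9 genes.

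Of the 10 members, 9 had at least 10 counts in at least 10 mice and were tested among 17524 genes, by edgeR's quasi-likelihood test, in a fit that also held a term for the library-number run. The log2 fold change of stimulated over control mice was above 0 for 7 members and below 0 for 2, beside 52.6% of all genes above 0. Members varied together between mice (Pearson's r up to 0.93), so their signs are not independent. The median over the 9 was 0.10, beside 0.01 over all genes. An unadjusted p below 0.05 was found for 2 members, Rtn4r and Rtn4rl2, and for 2015 genes in all (11.5% of those tested). After Benjamini-Hochberg adjustment 0 members and 0 of 17524 genes (0% called) had a p below 0.05, the smallest adjusted p of any gene being 0.241. At the same threshold the DESeq2 Wald test called 33 genes and limma voom 1, with 0 members among them. With group as the only term the same 2 members were below 0.05 unadjusted, beside 3.61% of all genes. In a bulk sample, fewer cells of a type and less RNA per cell cannot be told apart.

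**Figure D2:**
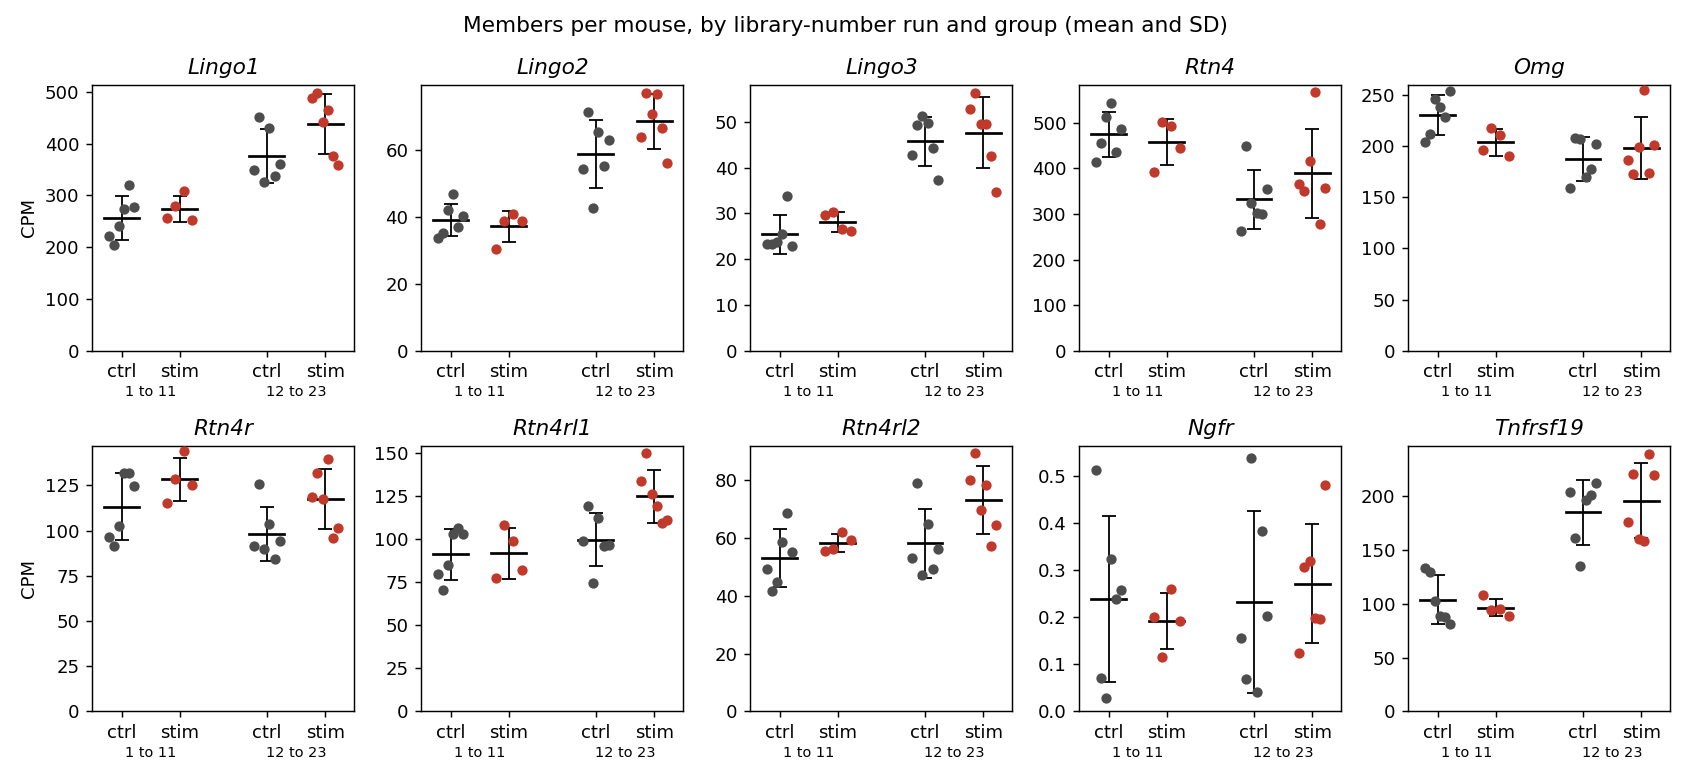
CPM of each member in each mouse, with controls in grey and stimulated mice in red, split into library numbers 1 to 11 and 12 to 23 (horizontal line mean, bars SD). Groups overlap for each of the 10 genes, while Lingo1, Lingo3 and Tnfrsf19 in numbers 12 to 23 lie above their values in numbers 1 to 11. The share of all genes whose runs lie apart in this way was not computed. Of all genes tested, 68.1% differed between the runs at an edgeR adjusted p below 0.05.

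Among the receptors, Rtn4r, the Nogo receptor itself, lies at chr16:18127642-18152408 on the plus strand (GRCm38). In library numbers 1 to 11 its controls had 91.3 to 132 CPM (median 114), and the stimulated mice had 115, 129, 144 and 125 CPM. In numbers 12 to 23 the controls had 84.2 to 126 CPM (median 92.9) and the stimulated mice 95.9 to 140 CPM (median 118). All 4 stimulated mice of the first run and all 6 of the second lay above the median control of their run, and the groups overlapped in both. Stimulated over control, its log2 fold change was 0.23 (SE 0.08, 1.17-fold), with an edgeR unadjusted p of 0.0116 and an adjusted p of 0.349. Within the runs it was 0.19 (SE 0.12) in numbers 1 to 11 and 0.23 (SE 0.11) in numbers 12 to 23, with unadjusted edgeR p of 0.129 and 0.0497. Without controls 9 and 11 the value over both runs was 0.17 (SE 0.09), with an unadjusted edgeR p of 0.0608.

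Rtn4rl2, a homologue of the Nogo receptor that binds Mag, lies at chr2:84871924-84886710 on the minus strand. Its controls had 41.6 to 68.7 CPM (median 52.3) in the first run, where the stimulated mice had 55.5, 56.2, 62.0 and 59.2 CPM. In the second run the controls had 47.1 to 78.9 CPM (median 54.6) and the stimulated mice 57.1 to 89.5 CPM (median 73.9). All 4 stimulated mice of the first run and all 6 of the second were above the median control of their run. The highest control lay above every stimulated mouse in the first run and inside the stimulated range in the second. The log2 fold change of 0.24 (SE 0.10, 1.18-fold) had an edgeR unadjusted p of 0.0181 and an adjusted p of 0.363. It was 0.15 (SE 0.13) in the first run and 0.30 (SE 0.13) in the second. Leaving out controls 9 and 11 brought it to 0.16 (SE 0.09), with an unadjusted edgeR p of 0.0990, and leaving out stimulated mouse 6, which had the highest level, brought it to 0.19, with an unadjusted edgeR p of 0.0513.

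For Rtn4rl1, another homologue (chr11:75193783-75267769, plus strand), the controls of the first run had 70.5 to 106 CPM (median 93.7) and the stimulated mice 77.2, 108, 99.0 and 81.8 CPM. The second run had 74.6 to 119 CPM in controls (median 97.5) and 109 to 150 CPM in stimulated mice (median 122). In the first run stimulated mice were spread over the control range, with 1 of them above every control. In the second all 6 lay above the median control and 3 above every control. Over both runs the log2 fold change was 0.19 (SE 0.09), with an edgeR unadjusted p of 0.0550 and an adjusted p of 0.445. It was 0.02 (SE 0.13) in the first run and 0.29 (SE 0.11) in the second, where the unadjusted edgeR p was 0.0130, or 0.0614 without controls 9 and 11. Leaving out these 2 controls brought the value over both runs to 0.10 (unadjusted edgeR p = 0.244). The test of the difference between the runs gave an unadjusted edgeR p of 0.0823.

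Lingo1, a leucine-rich repeat protein of neurons and oligodendrocytes, lies at chr9:56618475-56796468 on the minus strand. In the first run its controls had 204 to 321 CPM (median 258) and the stimulated mice 256, 279, 308 and 251 CPM. In the second run it had 325 to 451 CPM in controls (median 355) and 359 to 498 CPM in stimulated mice (median 453), with all 6 stimulated mice above the median control. Every mouse of the second run was thus above every mouse of the first, and within each run the groups overlapped. Its log2 fold change with stimulation was 0.16 (SE 0.08), with an edgeR unadjusted p of 0.0564 and an adjusted p of 0.448, and it was 0.10 (SE 0.08) without controls 9 and 11.

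Lingo2, a paralogue found mainly in neurons (chr4:35706647-36951747, minus strand), had 33.8 to 46.7 CPM in controls of the first run and 30.5, 38.7, 40.9 and 38.7 CPM in stimulated mice. In the second run it had 42.6 to 71.3 CPM in controls (median 59.1) and 56.0 to 77.0 CPM in stimulated mice (median 68.5). Lingo3 (chr10:80832801-80844039, minus strand) had 22.9 to 33.7 CPM in controls of the first run and 29.7, 30.3, 26.6 and 26.1 CPM in stimulated mice. Groups overlapped for both genes in both runs. In the second run Lingo3 had 37.2 to 51.2 CPM in controls (median 46.8) and 34.7 to 56.3 CPM in stimulated mice (median 49.5). Log2 fold changes were 0.09 (SE 0.09) for Lingo2 and 0.10 (SE 0.08) for Lingo3, with unadjusted edgeR p of 0.295 and 0.252. Lingo2 was at 0.0075 (unadjusted edgeR p = 0.925) without controls 9 and 11, and without control 9 alone it was 0.034. Leaving out stimulated mouse 6 brought Lingo2 to 0.056 and Lingo3 to 0.058, leaving out stimulated mouse 8 brought Lingo2 to 0.058, and leaving out control 12 brought Lingo3 to 0.060.

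Of the ligands, Rtn4 (chr11:29692947-29744331, plus strand) shares 1284 of its 6991 exonic bases with Eml6 on the opposite strand. The strand setting of the counting is not given in the sources used here and the library kit does not mark strand, so its counts are uncertain to that extent. Controls of the first run had 413 to 544 CPM (median 471) and stimulated mice 391.8, 500, 492 and 444 CPM. Those of the second run had 263 to 448 CPM (median 313) and stimulated mice 279 to 567.5 CPM (median 361). The log2 fold change was 0.10 (SE 0.10), with an unadjusted edgeR p of 0.325, and the groups overlapped in both runs. It was 0.015 without stimulated mouse 8, which had the highest level, 0.056 without control 7 and 0.056 without controls 9 and 11.

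Omg (chr11:79500982-79504084, minus strand) lies within Nf1 on the opposite strand, with 0 exonic bases shared. In the first run its controls had 204 to 254 CPM (median 233), and stimulated mice had 196, 218, 211 and 190 CPM. All 4 of these were below the median control. In the second run controls had 159 to 208 CPM (median 190) and stimulated mice 173 to 255 CPM (median 193). For Omg the log2 fold change was -0.17 (SE 0.09) in the first run, 0.05 (SE 0.10) in the second and -0.03 (SE 0.07) over both, where the unadjusted edgeR p was 0.640. On leaving out single mice it lay between -0.095 (without stimulated mouse 8) and -0.023 (without stimulated mouse 4), with -0.074 without control 7, -0.066 without control 10, -0.058 without control 11, -0.057 without control 1, and -0.053 without control 2 or stimulated mouse 10.

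The coreceptors differed widely in level. Tnfrsf19 (chr14:60963875-61046490, minus strand) had 81.3 to 134 CPM in controls of the first run (median 95.9), where stimulated mice had 108, 94.2, 95.3 and 88.6 CPM. In the second run it had 135 to 212 CPM in controls (median 199) and 158 to 239 CPM in stimulated mice (median 198). Its log2 fold change with stimulation was -0.00 (SE 0.10), with an unadjusted edgeR p of 0.980, and -0.06 without controls 9 and 11. Ngfr (chr11:95568818-95587735, minus strand) had 1 to 19 counts per mouse, with 10 or more in 6 of 22 mice, and was not tested. It had 0.235 ± 0.176 CPM in controls (SD, n = 12) and 0.239 ± 0.108 CPM in stimulated mice (SD, n = 10), so that a difference could hardly be detected at this depth. Per kilobase of exon, Tnfrsf19 was above Ngfr in every mouse, with means of 31.6 and 0.0688 CPM per kilobase.

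**Figure D3:**
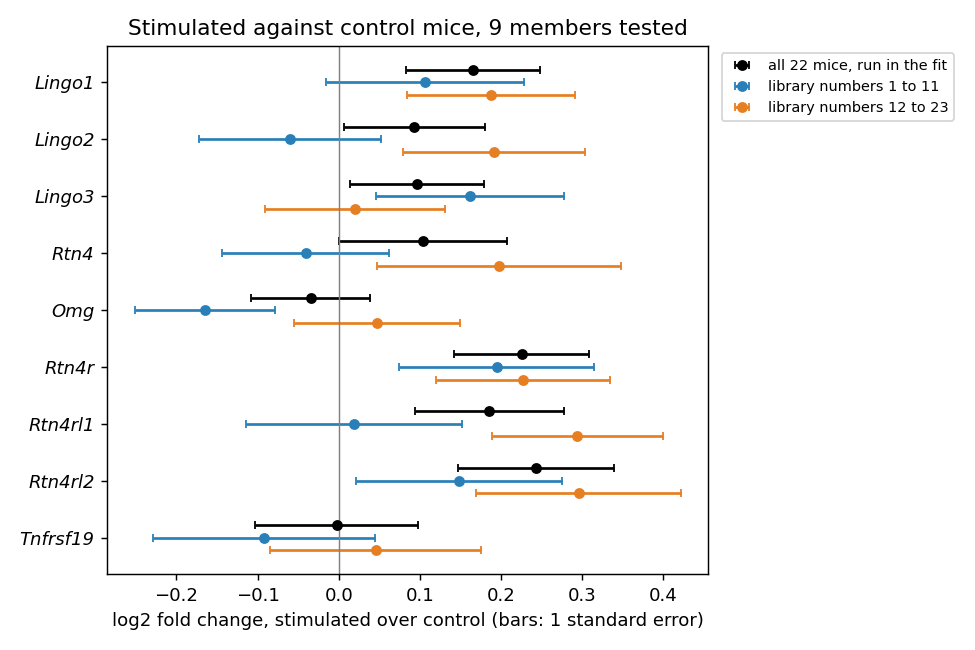
Log2 fold change of stimulated over control mice for the 9 members tested, with 1 standard error, over all 22 mice with the run in the fit and within each run of library numbers. Rtn4r, Rtn4rl2 and Rtn4rl1 have the values farthest from 0 over all mice (0.23, 0.24 and 0.19). In numbers 12 to 23 all 9 values are above 0, beside 50% of all genes.

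Within library numbers 1 to 11, 5 members had a log2 fold change above 0 and 4 below, beside 51.2% of all genes above 0. In that run 0 members had an unadjusted edgeR p below 0.05, beside 5.56% of all genes. Within numbers 12 to 23 all 9 were above 0, beside 50% of all genes. In that run 3 had an unadjusted edgeR p below 0.05 (Rtn4r, Rtn4rl1 and Rtn4rl2), beside 12.4% of all genes. Tnfrsf19 was at -0.01 there without controls 9 and 11. With these controls left out, 0 members had an unadjusted edgeR p below 0.05 within numbers 12 to 23, beside 4.95% of 17333 genes, and 0 over both runs, beside 7.73%. The interaction of stimulation and run had an unadjusted p below 0.05 for 0 of 9 members and 8.01% of all genes, so a difference between the runs in the effect of stimulation was not shown for any member.

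The members also differed between the runs themselves. With group in the fit, 8 of 9 members differed between runs at an edgeR adjusted p below 0.05, beside 68.1% of all genes. Tnfrsf19 was 1.88-fold higher in numbers 12 to 23 (log2 0.91, SE 0.10), Lingo3 1.75-fold (0.81, SE 0.08), Lingo2 1.64-fold (0.71, SE 0.09) and Lingo1 1.52-fold (0.61, SE 0.08). Rtn4rl1 and Rtn4rl2 were higher by 0.27 and 0.22 on the log2 scale, while the ligands Rtn4 and Omg were lower there, with log2 values of -0.39 (SE 0.10) and -0.18 (SE 0.07). Rtn4r, at -0.17 (SE 0.08), was the exception, with an adjusted edgeR p of 0.0716. The mitochondrial share of counts also differed, at 1.63% to 4.81% in numbers 1 to 11 and 0.98% to 1.90% in numbers 12 to 23, and its part in these differences was not tested.

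In the second run, scores of oligodendrocyte genes and of choroid plexus and ependymal genes were lower in stimulated mice. The permutation p-values within a run were not adjusted over lists or runs. The summed level of the 25 oligodendrocyte genes was 4076 to 21323 CPM in controls and 2872 to 5075 CPM in stimulated mice of numbers 12 to 23, and 3645 to 6888 CPM and 3851 to 6280 CPM in numbers 1 to 11. Mbp (a myelin structural protein) ranged from 1110 to 9688 CPM over all mice. The oligodendrocyte score was lower in stimulated mice by 0.86 in the second run (a difference of -0.86, exact permutation p = 0.0346, two-sided), or by 0.26 without controls 9 and 11 (-0.26, exact permutation p = 0.157), and differed by 0.03 in the first (exact permutation p = 0.743). Over both runs the difference was -0.46, with an exact permutation p of 0.0643 (labels exchanged within runs) and an adjusted p of 0.289 over 9 marker lists. Over both runs it was -0.11 without controls 9 and 11 (exact permutation p = 0.282). Choroid plexus and ependymal genes differed by -0.94 in the second run (exact permutation p = 0.00433), by -0.09 in the first (exact permutation p = 0.838) and by -0.57 over both runs (exact permutation p = 0.01999, adjusted p = 0.180). Without controls 9 and 11 the difference was -0.77 in the second run (exact permutation p = 0.00952) and -0.43 over both (exact permutation p = 0.0680), with Ttr at 1.41 to 127 CPM over all mice. Their part in the members' fold changes was not tested.

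Several members, but not all, had negative correlations with the oligodendrocyte score. Correlations of log2 CPM with the score were computed for 9 members in each run, 18 relations in all, with permutation p-values (two-sided, 100000 resamples) adjusted over the 18. In numbers 12 to 23 (n = 12 mice) Pearson's r was -0.81 for Rtn4rl1 and Lingo2 (adjusted permutation p = 0.0135 for both), -0.70 for Rtn4rl2 and -0.67 for Lingo1 (adjusted permutation p = 0.0193 for both). Spearman's rank correlation was -0.69, -0.67, -0.62 and -0.63 for the same 4 genes in that order, with an adjusted permutation p of 0.0990 for each. Without controls 9 and 11, the mice farthest from the median score, r was -0.59 for Rtn4rl1, -0.52 for Lingo2, -0.38 for Rtn4rl2 and -0.44 for Lingo1. Its unadjusted permutation p was then 0.0750, 0.126, 0.277 and 0.203, so the calls in this run rested on these 2 mice, while the sign of r did not. In numbers 1 to 11 (n = 10 mice) r was -0.71 for Rtn4rl2, -0.66 for Lingo1, -0.61 for Rtn4rl1 and -0.59 for Rtn4r, with adjusted permutation p-values of 0.0705, 0.0958, 0.141 and 0.152, while Lingo2 had -0.18 (adjusted permutation p = 0.789). Without controls 3 and 5, the mice farthest from the median score there, r was -0.44, -0.57, -0.60 and -0.48 for the first 4 genes and -0.57 for Lingo2. The myelin-associated ligand Omg had r of 0.06 in the second run and -0.16 in the first (adjusted permutation p = 0.932 and 0.789). In the second run r was -0.62 for Rtn4r (adjusted permutation p = 0.0705), -0.39 for Tnfrsf19, -0.28 for Rtn4 and -0.01 for Lingo3. In the first run it was 0.38 for Tnfrsf19, -0.27 for Lingo3 and -0.02 for Rtn4. For these 3 genes adjusted permutation p-values over both runs lay between 0.382 and 0.981.

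**Figure D4:**
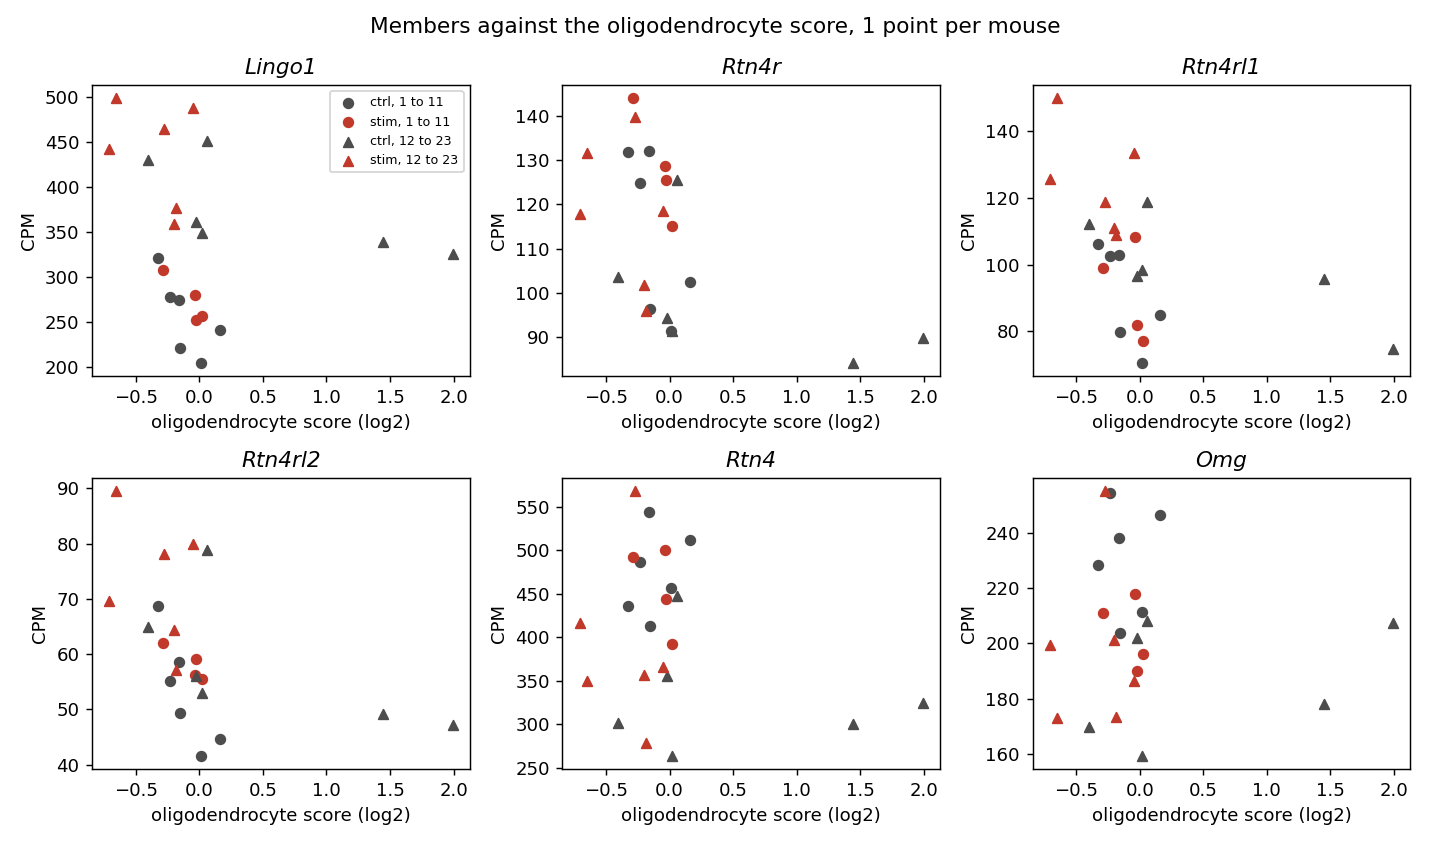
CPM of 6 members against the oligodendrocyte score (mean centred log2 CPM of 25 marker genes), 1 point per mouse, with circles for library numbers 1 to 11 and triangles for 12 to 23, controls in grey and stimulated mice in red. Controls 9 and 11 lie alone on the right at 1.99 and 1.45, where Rtn4rl2 has 47.1 and 49.2 CPM, the lowest values of numbers 12 to 23.

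Members also varied together between mice. After each run's mean was removed, Pearson's r over the 22 mice was 0.93 between Rtn4rl2 and Lingo1, 0.92 between Rtn4rl2 and Rtn4r, 0.92 between Rtn4r and Lingo1 and 0.88 between Rtn4rl1 and Lingo1. The ligands Omg and Rtn4 had an r of 0.82 with each other, and Omg had 0.15 to 0.34 with the receptors. Tnfrsf19 had negative values with all 8 other members, down to -0.53 with Omg. These values are descriptive, since the genes share libraries, depth and cell makeup.

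**Figure D5:**
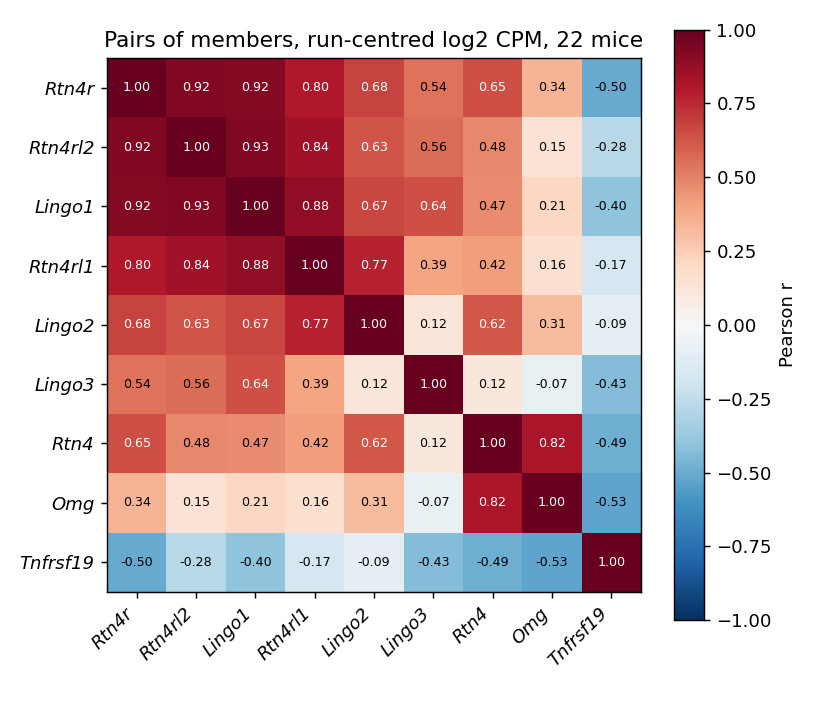
Pearson's r of run-centred log2 CPM over 22 mice for each pair of the 9 members tested. The 3 receptors and Lingo1 form a block of 0.80 to 0.93, Omg and Rtn4 reach 0.82, and the row of Tnfrsf19 is negative throughout.

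The genes most like the members by the same measure were Tyro3 (r = 0.95), Pgbd5 (0.95) and Ak5 (0.95) for Lingo1, and Fam131a (0.95), Crmp1 (0.95) and March5 (0.94) for Rtn4r. Rtn4rl2 was most like C2cd2l (0.94), Olfm1 (0.93) and Lingo1 (0.93). For Rtn4 they were Zfand5 (0.92), Zfp260 (0.91) and Ppp6c (0.91), and for Omg Gpbp1 (0.89), Cept1 (0.84) and Tdp2 (0.84).

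Other genes of the pathway were read from a list of 28, all of which were tested. The log2 fold change with stimulation was above 0 for 13 and below 0 for 15, with a median of -0.02. An unadjusted edgeR p below 0.05 was found for 5 above 0 and 1 below, 6 of 28 beside 11.5% of all genes, and 0 passed the adjusted threshold. There were 2 without controls 9 and 11, Olfm1 and Cfl1, beside 7.73% of all genes. Of 6 further ligands and binding partners, 2 were above 0. Of 7 other receptors of the same ligands, 4 were above 0, as were 2 of 3 other reticulons.

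Olfm1, a secreted protein that binds the Nogo receptor, had 1301 to 2236 CPM in controls (median 1746) and 1547 to 2285 CPM in stimulated mice (median 1950). Its log2 fold change was 0.19 (SE 0.06), with an edgeR unadjusted p of 0.00577 and an adjusted p of 0.333, and it was 0.14 (unadjusted edgeR p = 0.0336) without controls 9 and 11. Mag, the myelin ligand, had 64.7 to 444 CPM in controls (median 84.1) and 57.9 to 98.3 CPM in stimulated mice (median 86.2), so that the medians were close and the highest control was far above every stimulated mouse. Its log2 fold change was -0.60 (SE 0.28, unadjusted edgeR p = 0.0409). It was 0.20 in the first run and -1.30 in the second, with an interaction edgeR p of 0.00601 unadjusted and 0.558 adjusted. Without controls 9 and 11 it was -0.02 over both runs (unadjusted edgeR p = 0.837) and -0.24 in the second (unadjusted edgeR p = 0.145). The interaction then had an unadjusted edgeR p of 0.0456. Mag is also 1 of the 25 oligodendrocyte genes.

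Ptprf, a receptor tyrosine phosphatase for matrix proteoglycans, had a log2 fold change of 0.19 (SE 0.08, unadjusted edgeR p = 0.0239), and without controls 9 and 11 it had 0.10 (unadjusted edgeR p = 0.137). Cfl1, the actin-severing protein cofilin, had 0.19 (SE 0.07, unadjusted edgeR p = 0.00964) and 0.19 (unadjusted edgeR p = 0.0182) without them. Arhgdia had 0.10 (SE 0.05, unadjusted edgeR p = 0.0461), and Rtn1, a neuronal reticulon, had 0.19 (SE 0.09, unadjusted edgeR p = 0.0391). With both controls left out these were 0.09 (unadjusted edgeR p = 0.0874) and 0.12 (unadjusted edgeR p = 0.177). Adjusted p-values of these 4 genes lay between 0.349 and 0.426, and their groups overlapped. With group as the only term, Mag alone of the 28 had an unadjusted edgeR p below 0.05 (p = 0.0352).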

How the data were processed

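RNA of bulk ACC was sequenced from 22 mice, 12 controls and 10 stimulated, as single-end libraries made from 5 ng of total RNA. After trimming (cutadapt 1.10) and alignment to mm10 (STAR 2.5.3a), the authors counted reads aligned to 1 place per gene with HTSeq 0.6.1p1, and they deposited these raw counts. They also deposited counts divided by size factors and the log2 fold changes and p-values of their own DESeq2 1.22.1 comparison, none of which were used. Columns of further samples numbered 0. RNA integrity and batch, covariates of the study, are not in the labels used here.

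Tests were made with edgeR 4.0.16 under R 4.3.3 (TMM, glmQLFit, glmQLFTest), with library-number run and group as terms, over the 17524 genes that reached 10 counts in 10 or more mice, and p-values were adjusted by Benjamini-Hochberg. A standard error is the fitted log2 change over the root of the F statistic. CPM are TMM-scaled, and levels per kilobase used the exons of GENCODE M21 (GRCm38), which held 37772 of the 37786 identifiers. Scores used a prior count of 2. Alternatives were group alone, the replicate number as a block, DESeq2 1.42.0 size factors and Wald test, limma 3.58.1 voom, other count minimums, and leaving out each mouse or controls 9 and 11. Correlations and permutation tests used Python 3.11.15, numpy 2.4.6 and scipy 1.17.1.

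Members, lists and tests were chosen with earlier results of these data known. Named genes are all members, pathway genes with an unadjusted p below 0.05, the 3 genes most correlated with Lingo1, Rtn4, Omg and each member with an unadjusted p below 0.05, and defining markers. A subgroup of the pathway list is not reported here. Eml6 and Nf1 are named because they overlap members. Nothing in the labels says that mice share a litter or a day beyond these numbers.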

Additional observations from a re-analysis of the deposited data

Results flagged for a closer look

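Among the 6 controls of library numbers 1 to 11, Lingo3 was at 33.7 CPM in control 5 and at 22.9 to 25.5 CPM in the other 5, and the gap from control 5 to its nearest neighbour took a share of 0.720 of the whole range on the log2 scale, past Dixon's 95% limit. This was the 1 flag among 36 groups of values tested, and chance flags about 1 in 20 such groups.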

How the results depend on the processing

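The count of 2 members at an unadjusted p below 0.05 became 4 with limma voom, 0 without controls 9 and 11, and 1 to 4 when each mouse was left out in turn (4 without control 5, 1 without stimulated mouse 6). Over all genes the count was 2015, and it became 2860, 1339 and 1507 to 2415 under the same settings. In library numbers 1 to 11 the count of 0 became 0 to 2 on leaving out single mice (1, lower, without control 1 or 2, and 2, higher, without control 5), beside 703 to 1170 of all genes, and in numbers 12 to 23 the count of 3 became 1 to 6 (1 without control 7, 9, 11 or 12 or stimulated mouse 5, 6 or 8, 6 without control 8, 5 without stimulated mouse 10), beside 1373 to 2984 of all genes (1373 without control 11, 2984 without control 8, 2165 with every mouse), and 0 without controls 9 and 11. The 6 pathway genes became 1 with group alone, 2 without controls 9 and 11, and 2 to 8 on leaving out single mice (2 without control 9, control 11 or stimulated mouse 6, 3 without control 12 or stimulated mouse 5, 7 or 8). Over 31 alternatives the log2 fold change stayed above 0 in all 31 for Lingo1, Lingo2, Lingo3, Rtn4r, Rtn4rl1 and Rtn4rl2. Rtn4r and Rtn4rl2 each kept an unadjusted p below 0.05 in 29 of 31, with adjusted p from 0.154 to 0.9998 and from 0.166 to 0.9998. Tnfrsf19 changed sign with group alone (0.11), with no count minimum (0.0062) and on leaving out single mice (-0.058 to 0.024), and its correlation with the oligodendrocyte score in numbers 12 to 23 became 0.043 without controls 9 and 11. Same-numbered mice are different animals, and their deviations from group and run had correlations of -0.22 to 0.28 (mean 0.03) over 10 pairs. With deviations from group means alone the mean was 0.31, beside -0.03 for mice of unlike numbers. These values cannot show whether same-numbered mice shared a litter or a day. In fits with a replicate block (replicates 1 to 10), 2 members had an unadjusted p below 0.05 with the run in the fit and 3 without it, beside 1983 and 1292 of all genes. The 3 were Lingo1 (0.26, p = 0.0182), Rtn4rl1 (0.21, p = 0.0396) and Rtn4rl2 (0.25, p = 0.00764), while Rtn4r was at 0.16 (p = 0.0858), all by edgeR and unadjusted. Under the block with the run Omg was at 0.0076, and under the block without the run Rtn4 was at -0.012 and Tnfrsf19 at 0.20. The scores of the marker lists in numbers 12 to 23 without controls 9 and 11 were added after seeing the data, and the endothelial and mural score became 0.046 there. For results that changed, the cause was not tested. Depth limits Ngfr, which had a log2 fold change of -0.04 (SE 0.41) with no count minimum.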

Other observations

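The other marker lists gave smaller differences between the groups. Stimulated minus control scores over both runs were 0.09 for 19 neuronal genes (exact permutation p = 0.182), -0.13 for 10 astrocyte genes (exact permutation p = 0.388), 0.07 for 10 microglial genes (exact permutation p = 0.552) and -0.09 for 10 endothelial and mural genes (exact permutation p = 0.287). They were -0.16 for 9 fibroblast and meningeal genes (exact permutation p = 0.585), 0.10 for 8 striatal genes (exact permutation p = 0.257) and -0.10 for 10 oligodendrocyte progenitor genes (exact permutation p = 0.132). Adjusted over the 9 lists, these p-values lay between 0.396 and 0.585. In library numbers 12 to 23 the progenitor list differed by -0.22 (exact permutation p = 0.0303), and by -0.11 without controls 9 and 11 (exact permutation p = 0.133). Pdgfra (a progenitor receptor) ranged from 18.2 to 79.8 CPM, Aqp4 (astrocytes) from 65.4 to 224 CPM, Cx3cr1 (microglia) from 45.9 to 102 CPM and Cldn5 (endothelium) from 51.9 to 130 CPM.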
